A study of Mus musculus with 96 samples.

Results

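Cytosolic heat shock chaperones are 10 of the 40202 genes listed in the count data: Hsp90aa1, Hsp90ab1, Hspa8, Hspa1a, Hspa1b, Hsph1, Hspa4, Dnaja1, Dnajb1 and Hspb1. They were taken by gene name and described in single cells of the mouse line C10, a lung line labelled as alveolar type II epithelial. The libraries numbered 96, each from 1 sorted cell. Of these, 48 were untreated (control) and 48 were exposed to RO-3306, a compound sold as a CDK1 inhibitor, at 10 nM for 36 h. All cells were grown in RPMI with serum, and no genotype, clone or separate culture is named for either group. Values were taken from cells with at least 50000 counts and 1000 genes with a count, which left 29 control and 37 RO-3306 cells. CDK1 is a kinase that drives entry into mitosis.

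HSP70 and HSP90 proteins are ATP-driven machines that bind unfolded or immature proteins in the cytosol. J-domain proteins such as DNAJA1 and DNAJB1 deliver clients to HSP70 and start its ATP cycle, HSPH1 and HSPA4 release its nucleotide, and HSP90 acts later on kinases and receptors that are nearly folded. Some members are made all the time (Hspa8, Hsp90ab1), while others are switched on by the heat shock factor HSF1 when proteins unfold (Hspa1a, Hspa1b, Hspb1).

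Depth, gene number and cell type markers bear on every level below. Kept cells held 59979 to 6457215 counts in control (median 1753427) and 295005 to 5321880 in RO-3306 (median 2234309). The median number of genes with a count was 5177 and 6951. It was 4576 and 5958 in the 25 control and 34 RO-3306 cells with enough reads to be thinned to 639000. RO-3306 cells thus gave more genes at equal depth. The median mitochondrial share was 3.40% and 4.42% of counts, but RO-3306 cell B3 held 56.0% and A11 18.1%. B3 set the lowest RO-3306 values of Hsp90ab1, Dnaja1 and the summed members below. A11 set the highest values of Hsph1 and Dnaja1. The alveolar type II markers Sftpa1, Sftpc, Sftpd, Slc34a2 and Napsa had 0 counts in every kept cell, and the summed level of all 9 such markers was 23.2 and 24.1 CPM for control and RO-3306 (CPM: counts per 1000000). Mesenchymal markers summed to 5630 and 2531 CPM (1329 to 11354 and 1297 to 13886 over cells), epithelial markers to 1.78 and 0.978 CPM, and macrophage markers to 58.5 and 61.2 CPM. Their part in the results below was not tested. No separate cultures are named, so each group counts as 1 sample and no p-value is given. The cells show only the spread within a sample. Intervals are at the 95% level and cover counting error only.

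Constitutive chaperones dominated. Per kilobase of mRNA (the group's CPM divided by the length of the longest protein-coding transcript), Hsp90ab1 had the highest control level at 1205 and Hspa8 the next at 785. Hsp90aa1 followed at 179, Dnaja1 at 63.0, Hspa4 at 35, Dnajb1 at 20.8, Hsph1 at 20.3 and Hspa1b at 1.17. In RO-3306 the levels per kilobase were 747 for Hsp90ab1, 662 for Hspa8, 144 for Hsp90aa1, 64.8 for Dnaja1, 24.5 for Dnajb1, 15.5 for Hsph1, 10.7 for Hspa4 and 0.630 for Hspa1b. Hspa4 thus stood above Dnajb1 and Hsph1 in control and below them in RO-3306, though it was above Dnajb1 in only 16 of 29 control cells and in 10 of 37 with RO-3306. The first places did not separate in every cell: Hsp90ab1 was above Hspa8 per kilobase in 23 of 29 control and 25 of 37 RO-3306 cells, and the quartile ranges of these genes overlapped in both groups. Hspa8 was above Hsp90aa1 in 29 of 29 and 36 of 37 cells. Dnajb1 was above Hsph1 in 13 of 29 and 21 of 37 cells, so these neighbours did not differ beyond the spread between cells. In all of these cell counts, a cell at 0 for both genes counts as not above, so the remaining cells include such ties. With the first-numbered reference transcript in place of the longest, Dnaja1 moved to 104.9 in control and 107.8 in RO-3306, and Hsph1, at 23.9, passed Dnajb1 in control, which shows how far the scale rests on the chosen length. Counts were also taken over whole gene spans, so reads from introns can add to a level with no length added. The span was 40666 nt for Hspa4 and 22287 nt for Hsph1, but 2810 nt for Hspa1b. The share of intron reads was not tested.

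**Figure D1:**
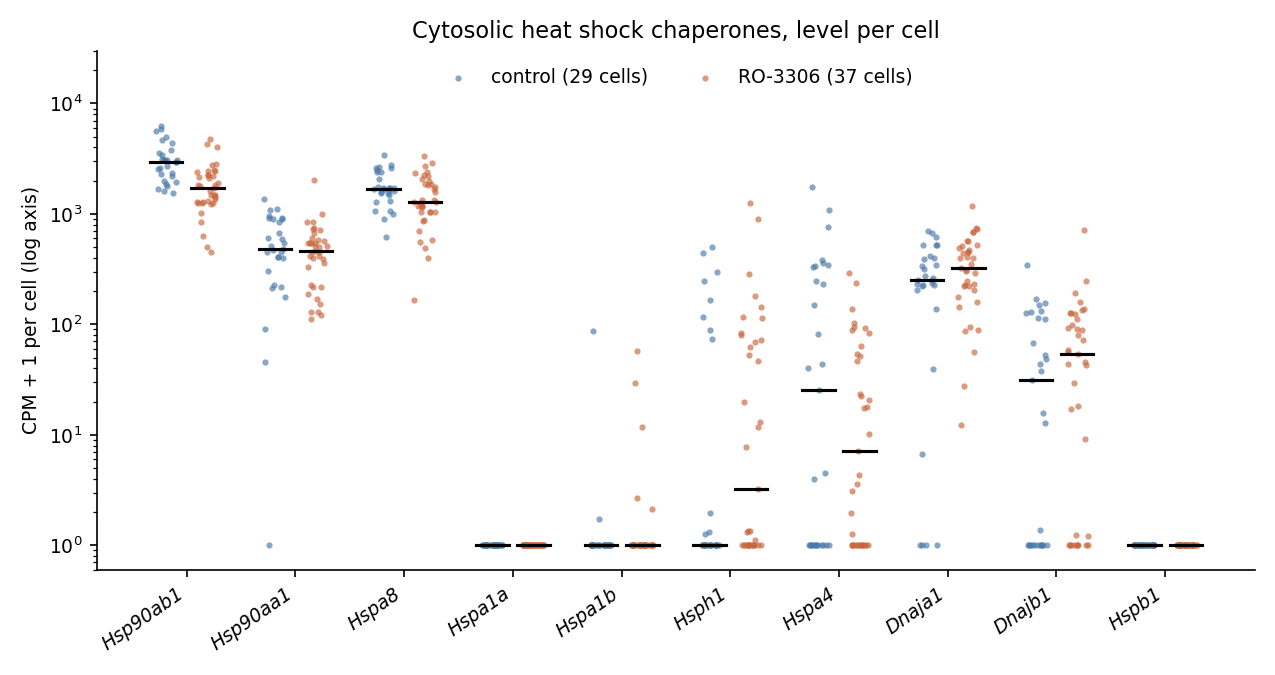
Level of each chaperone in each kept cell (CPM + 1, log axis), 29 control cells in blue and 37 RO-3306 cells in orange, with black bars at the group medians. Hsp90ab1 and Hspa8 have the highest medians, Hspa1a and Hspb1 lie at 0 throughout, and Hsph1, Hspa4 and Dnajb1 are at 0 in some cells and above 100 CPM in others.

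The HSP90 pair consists of Hsp90ab1, the constitutive form, and Hsp90aa1, the form that heat can raise further. Hsp90ab1 (GRCm39 chr17:45878704-45884187, minus strand) ranged from 1558 to 6307 CPM over control cells with a median of 2977, and from 451 to 4736 CPM across RO-3306 cells with a median of 1731. The groups overlapped, but 34 of 37 RO-3306 cells lay below the control median and 17 lay below the lowest control cell. With counts summed over cells, Hsp90ab1 was 3037 CPM (3024 to 3050) without treatment and 1882 CPM (1873 to 1890) with RO-3306. The log2 ratio of RO-3306 over control (1 CPM added to both) was -0.69, and the untransformed ratio was 0.620 (0.616 to 0.624).

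Titles place the cells of both groups in 4 lettered sets, A to D, whose meaning is not given, and these sets did not give the same picture for Hsp90ab1. Its control level was 2200 CPM in set A, 3300 in B, 3408 in C and 4515 in D. Its RO-3306 level was 2396, 1790, 1760 and 1734 CPM in the same order. The log2 ratio was therefore 0.12 in set A and -0.88, -0.95 and -1.38 in the others. Control sets spread wider than RO-3306 sets, and without set A the pooled ratio was -1.01.

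Hsp90aa1 (GRCm39 chr12:110657470-110662829, minus strand) ran from 0 to 1370 CPM over control cells (median 484) and from 111 to 2043 CPM over RO-3306 cells (median 457). The groups overlapped almost fully, with 19 of 37 RO-3306 cells below the control median. Its summed level was 587 CPM against 471 CPM with RO-3306, a log2 ratio of -0.32. It was lower in RO-3306 in every set, at -0.06, -0.20, -0.13 and -0.90 for A to D, in the mean over cells (-0.18), and under TMM scaling (-0.11) and DESeq2 size factors (-0.08). A sign that was the same in all of these checks is called settled below. The differences in sets A, B and C were smaller than the shift that either scaling puts on all genes (0.21 and 0.24).

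The mix of both forms was read cell by cell. Hsp90aa1 made up a median of 15% of HSP90 counts per control cell (quartiles 9.92% and 22.4%) and 19.6% per RO-3306 cell (quartiles 14.5% and 27.3%). The quartile ranges overlapped. No stretch of 150 nt, the read length, was shared by the reference transcripts of these genes, yet counts with a fractional part, which arise from reads placed at several sites, occurred for Hsp90aa1 in 25 of 29 control and 30 of 37 RO-3306 cells. For Hsp90ab1 they occurred in 16 and 20 cells.

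**Figure D2:**
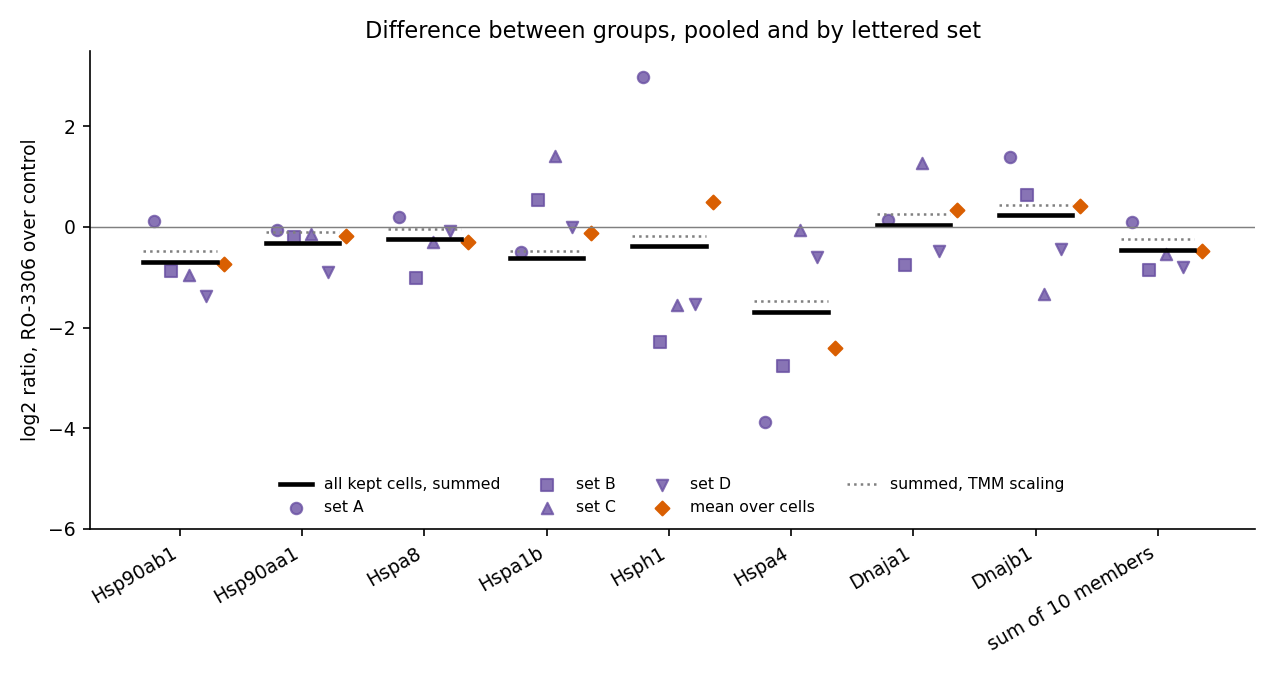
Log2 ratio of RO-3306 over control for the 8 chaperones with a count and for the sum of all 10, from summed counts (black bars), with TMM scaling (dotted), per lettered set (purple symbols) and from the mean over cells (orange diamonds). Hspa4 lies below 0 throughout, Hsp90aa1 lies below 0 but near it in sets A to C, and the sets of Hsph1, Dnaja1 and Dnajb1 fall on both sides of 0.

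Hspa8 encodes HSC70, the constitutive HSP70 that also strips clathrin from vesicles. Hspa8 (GRCm39 chr9:40712572-40716498, plus strand) was counted in every kept cell, at 619 to 3378 CPM for control (median 1685) and 166 to 3342 CPM for RO-3306 (median 1270). The ranges overlapped, with 24 of 37 RO-3306 cells below the control median and 5 below the lowest control cell. Summed levels were 1879 and 1585 CPM, a log2 ratio of -0.25. The sign was not settled, at 0.19 in set A, -1.01 in B, -0.30 in C and -0.08 in D, and without set B the pooled ratio was 0.07. Spans of Snord14c, Snord14d and Snord14e cover 6.75% of the Hspa8 span, and counts there can be lost or shared. Hspa8 counts had a fractional part in 28 of 29 control and 29 of 37 RO-3306 cells.

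The stress-inducible HSP70 genes Hspa1a (GRCm39 chr17:35188335-35191132, minus strand) and Hspa1b (chr17:35175405-35178214, minus strand) are near-identical neighbours. Hspa1a had 0 counts in all 66 kept cells and in the 30 libraries left out. Taking 3 counts or 3 cells as the limit that a 0 allows, the level could be up to 0.0454 CPM for control and 0.0323 CPM for RO-3306, and the share of cells with a count up to 10.3% and 8.11%. The exact Clopper-Pearson limits for the shares are 11.9% and 9.49%. Hspa1b was at 0 in 27 of 29 control cells and in 32 of 37 with RO-3306. It held 216 counts in control (3.27 CPM) and 164 in RO-3306 (1.77 CPM). Control cell A9 alone held 99.5% of the first, and the RO-3306 cell also titled A9 held 61.9% of the second. The counts gave a ratio of 0.540 (0.438 to 0.665), but without the top cell of each group the log2 ratio turned from -0.63 to 0.74, so no direction is read from it. Stretches of 150 nt shared by the pair made up 38.1% of those in the Hspa1a transcript of GENCODE M21. For the Hspa1b transcript the share was 40.5%. A read placed at both genes would be divided evenly between them, but no such division was seen. Hspa1a was at 0 in every cell with an Hspa1b count, and Hspa1b counts had a fractional part in 0 control and 2 RO-3306 cells.

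Hspb1 (GRCm39 chr5:135916773-135918417, plus strand), the small heat shock protein HSP27 or HSP25 that holds unfolded proteins for refolding, also had 0 counts in all 66 kept cells and all 30 others. The same limits hold as for Hspa1a. Genes with no count in any kept cell made up 53.8% of all listed genes, so an undetected gene is common here, and 2 of the 10 members fell in that class. Hspa1a, Hspa1b and Hspb1 were thus at or near 0 in both groups, in cells with a median of 5 members with a count in control (3 to 7) and 6 in RO-3306 (4 to 8).

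**Figure D3:**
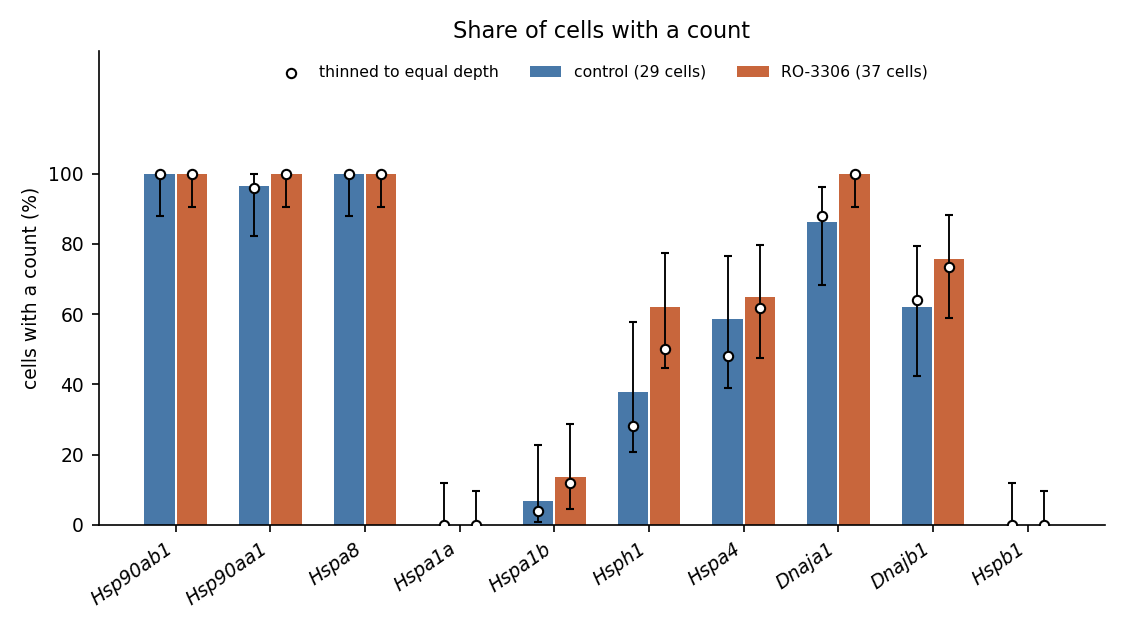
Share of kept cells with a count for each chaperone, in percent, with Clopper-Pearson 95% intervals for 29 control (blue) and 37 RO-3306 cells (orange), and open circles for cells thinned to 639000 reads (25 and 34 cells). Hsp90ab1 and Hspa8 reach 100% in both groups, and Hspa1a and Hspb1 are at 0.

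Promoter stretches are shown next for the silent members and for members that were counted. HSF1 binds inverted repeats of GAA, and the units GAANNTTC and TTCNNGAA (each equal to its own reverse complement, so both strands are covered; the units can overlap in longer repeats) were searched in windows from 250 bases before to 50 after each start site in RefSeq, build GRCm38.p6. Of the members, 7 had a window and Hsp90aa1, Hsp90ab1 and Hspa8 had none in the table. Either unit was found for 5 of these 7 genes (Hspa1a, Hspa1b, Hspb1, Dnaja1 and Hsph1) and not for Hspa4 and Dnajb1, where 17% of all 27025 genes held one. By window it was found in 6 of 11 for the members, with 1 of 3 for Dnaja1, and in 15.1% of all 32851. Capitals mark the units below. The Hspa1a stretch is at chr17:34972233-34972280 and the Hspa1b stretch at chr17:34959315-34959362, both on the minus strand with the unit starting at -104 from the start site. The Hspb1 stretch is at chr5:135887782-135887849 on the plus strand with units at -117 and -97, and the Dnaja1 stretch at chr4:40722324-40722371 on the plus strand with its unit at -124. The upstream Hsph1 stretch is at chr5:149636342-149636389 on the minus strand, with its unit at -54 or -33 by the start site used. Hsph1 also has overlapping units of both kinds just after the start site, at 16 and 21 or at 37 and 42, which are not printed.
Hspa1a: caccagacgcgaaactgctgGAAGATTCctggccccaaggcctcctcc
Hspa1b: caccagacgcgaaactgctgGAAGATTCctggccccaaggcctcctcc
Hspb1: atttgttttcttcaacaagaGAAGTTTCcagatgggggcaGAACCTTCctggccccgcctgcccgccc
Dnaja1: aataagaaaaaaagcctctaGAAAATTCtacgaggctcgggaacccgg
Hsph1: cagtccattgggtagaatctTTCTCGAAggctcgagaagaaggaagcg
The Hspa1a and Hspa1b stretches are the same, and their whole windows differ at 4 of 300 bases. Hspa1a, Hspb1 and Dnaja1 each carry a unit, yet Hspa1a and Hspb1 were at 0 while Dnaja1 was counted in 62 of 66 cells. A match describes the letters only, and no match says nothing of the factor.

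The exchange factors of HSP70 held the largest pooled difference among the members, with wide spread between lettered sets. Hspa4 (GRCm39 chr11:53150641-53191306, minus strand), an HSP110-type factor, ran from 0 to 1736 CPM over control cells (median 24.3) and from 0 to 288 CPM over RO-3306 cells (median 6.08). High cells were found mainly in control: 11 of 29 were above 100 CPM there and 4 of 37 in RO-3306. The share of cells with any count did not follow this, at 58.6% (38.9% to 76.5%) and 64.9%, and 48% and 61.8% at equal depth. Summed levels were 162 CPM (159 to 165) and 49.5 CPM (48.1 to 51), a log2 ratio of -1.69, and -2.41 in the mean over cells. The sign was settled, but the size was not: -3.88 in set A, -2.77 in B, -0.06 in C and -0.60 in D. Without set A the pooled ratio was -1.03.

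Hsph1, the other HSP110 protein (GRCm39 chr5:149540308-149562594, minus strand), ran from 0 to 497 CPM in control cells (median 0) and from 0 to 1253 CPM in RO-3306 cells (median 2.24). Of the cells, 11 of 29 and 23 of 37 held a count, and in 28% and 50% at equal depth. Its summed level was lower in RO-3306, 77.3 against 58.8 CPM (log2 ratio -0.39), while its mean over cells was higher (0.50), and set A (2.98) went against B, C and D (-2.29, -1.54 and -1.53). The share and the level went opposite ways, so no order of the groups is read for Hsph1. Control cell D9 held 31.9% of its control counts.

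The J-domain members did not separate the groups. Dnaja1 (GRCm39 chr4:40722468-40734965, plus strand) ranged from 0 to 694 CPM for control (median 254) and from 11.3 to 1166 CPM for RO-3306 (median 323). It was at 0 in 4 of 29 control cells and in no RO-3306 cell. Dnaja1 counts had a fractional part, from reads placed at several sites, in 21 of 29 control and 36 of 37 RO-3306 cells. Summed levels were 354 and 364 CPM, a log2 ratio of 0.04, with 0.14, -0.75, 1.26 and -0.48 in sets A to D. Dnajb1 (GRCm39 chr8:84334804-84339282, plus strand), the partner that HSF1 raises strongly under heat, ranged from 0 to 345 CPM for control (median 30.5) and from 0 to 718 CPM for RO-3306 (median 52.5). Of the cells, 18 of 29 and 28 of 37 held a count. Summed levels were 62.3 and 73.4 CPM, a log2 ratio of 0.23, with 1.39, 0.64, -1.33 and -0.45 in sets A to D. Neither sign was settled, and the ranges of the groups overlapped for both genes. Of 37 RO-3306 cells, 3 lay above the highest control cell for Dnaja1 and 1 for Dnajb1.

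Over the whole set, 7 of the 10 members reached a mean of 5 CPM and 5 of these 7 had a log2 ratio below 0, where 59.0% of all 9374 genes at that level did. The sign was settled below 0 for 2 of 7, Hspa4 and Hsp90aa1, against 10.0% of all genes. At 2-fold or more, 1 of 7 (Hspa4) was lower, against 24.2% of all genes, and 0 of 7 was higher, against 12.2%. The median log2 ratio was -0.32 for the 7 members and -0.22 for all genes. TMM scaling moved these medians to -0.11 and -0.02, so these medians depend on the total used. With TMM scaling, 19.7% of all genes were lower and 15.6% higher by 2-fold or more. Summed over the members, the level was 3519 to 12021 CPM in control cells (median 5744) and 1028 to 10744 CPM in RO-3306 cells (median 4096). That is a median of 0.574% of a control cell's counts and 0.410% of an RO-3306 cell's counts, and 13 of 37 RO-3306 cells lay below the lowest control cell. The lowest of them was B3, where 56.0% of counts were mitochondrial. From summed counts Hsp90ab1 held 3037 and 1882 CPM and Hspa8 1879 and 1585 CPM, which is most of the members' sum. Dnaja1 and Dnajb1 were not lower. The members together were at 6162 and 4485 CPM, a log2 ratio of -0.46. Without cells above 20% mitochondrial, that ratio was -0.45. Sets B, C and D gave -0.85, -0.53 and -0.79, and set A gave 0.10. The RO-3306 sets (5055, 3774, 4308 and 5007 CPM for A to D) overlapped with the control sets (4714, 6807, 6222 and 8685 CPM).

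Other parts of the heat shock response were read from lists of related genes. Of 16 further genes known to be induced by heat, all at 5 CPM or more, 9 were lower and 7 higher, with a median log2 ratio of -0.01. Among all 9374 genes at that level, 59.0% were lower and the median was -0.22. Their sign was settled below 0 for 938 and above 0 for 1206. Settled genes went both ways: Hmox1, the heme-degrading enzyme also raised by oxidative stress, went from 22.4 to 125 CPM (2.43), the polyubiquitin gene Ubb from 1988 to 2899 CPM (0.54), and Serpinh1, the collagen chaperone of the endoplasmic reticulum, from 266 to 113 CPM (-1.23). The fourth was Cryab, a small heat shock protein, which went from 125 to 427 CPM (1.76) with counts in 24 of 29 control and 36 of 37 RO-3306 cells. Among other HSP70 and small heat shock genes (4 of 9 at 5 CPM or more), Cryab was the most abundant and the highest, and Hspa2 had the lowest ratio (-0.37). Hsf1 itself was 66.7 and 77.9 CPM (0.22, not settled), and Hsbp1, which encodes a protein that binds HSF1, was 192 and 291 CPM (0.60, settled).

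The partners of HSP90 and HSP70 had list medians near that of all genes (-0.22), with a wide range of single genes. Of all genes, 59.0% were below 0 and 10.0% were settled below 0. Among 16 measured HSP90 co-chaperones, 14 were lower and 2 higher (median -0.16, or 0.05 with TMM scaling), none with a settled sign. The most abundant was Cacybp (834 and 820 CPM), the lowest ratio was that of Fkbp5 (-1.38), a target of the glucocorticoid receptor, and the highest that of Ppp5c (0.14). Among 11 measured HSP70 co-chaperones, 8 were lower and 3 higher (median -0.25, or -0.05 with TMM scaling). At 2-fold or more, 3 were lower (Bag5, Bag6 and Dnajc7), against 24.2% of all genes, and 1 higher (Hspa4l), against 12.2%. Bag1, a nucleotide exchange factor, was the most abundant at 573 and 792 CPM (0.47). Bag5 had the lowest ratio (-1.85, with set D at 0.84) and Hspa4l, the relative of Hspa4, the highest (1.60, from 3.53 to 12.8 CPM, with set B at -1.79). Of these 11, Dnajc7 was settled lower and Stub1, the ubiquitin ligase CHIP, settled higher. Of 9 other measured J-domain genes, 6 were lower (median -0.18, or 0.03 with TMM scaling), from -0.99 for Dnajc5 to 0.59 for Dnajb6, and Dnajc8 was the most abundant at 780 and 687 CPM.

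The cytosolic ring CCT and the chaperones of other compartments were read against 59.0% of all genes below 0 and 10.0% settled below 0. All 8 subunits of CCT, which folds actin and tubulin, were below 0 (median -0.41, or -0.20 with TMM scaling), and 3 were settled. They ran from Cct3 (331 to 169 CPM, -0.96) to Tcp1 (398 to 383 CPM, -0.05), with Cct6a the most abundant in control (706 to 410 CPM, -0.78). Of 12 chaperones of the endoplasmic reticulum, 10 were lower (median -0.59, or -0.38 with TMM scaling) and 5 were settled lower. Hsp90b1, the HSP90 of that compartment, was the most abundant and the lowest (875 to 310.5 CPM, -1.49), and Dnajb9 the highest (0.78, with set A at -1.09). Of 10 mitochondrial chaperones, 7 were lower (median -0.37, or -0.16 with TMM scaling) and none was settled. Without set B that median was 0.0070. Hspd1, the HSP60 ring, went from 705 to 371 CPM (-0.93, with set C at 0.33), Trap1 had the lowest ratio (-1.09, with set A at 2.61 and the mean over cells at -0.23) and Clpx the highest (0.38, with set B at -1.99).

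Cell cycle and immediate early genes are given beside the chaperones. Among all genes, 59.0% were lower and the median was -0.22. S phase genes were lower in 14 of 15 measured (median -0.97), from Cdc6 (-2.39) to Gins2 (0.16), with Pcna the most abundant in control (281 and 216 CPM). G2/M genes were split, 10 lower and 8 higher of 18 (median -0.15, or 0.06 with TMM scaling, -0.70 without set A and 0.61 without set B), from Mki67 (-2.98) to Ube2c (0.94), which was also the most abundant. Immediate early genes were lower in 7 of 8 measured (median -1.03). Egr1 was at 39.3 CPM without treatment and 0 with RO-3306. Against 3 counts over the group, the pooled level is at least 1216-fold lower, a bound that covers counting error only. Only 6 control cells had a count, and in sets C and D neither group had one. Atf3 was the highest (3.67) and Junb the most abundant (233 and 106 CPM). Their part in the chaperone levels was not tested.

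**Figure D4:**
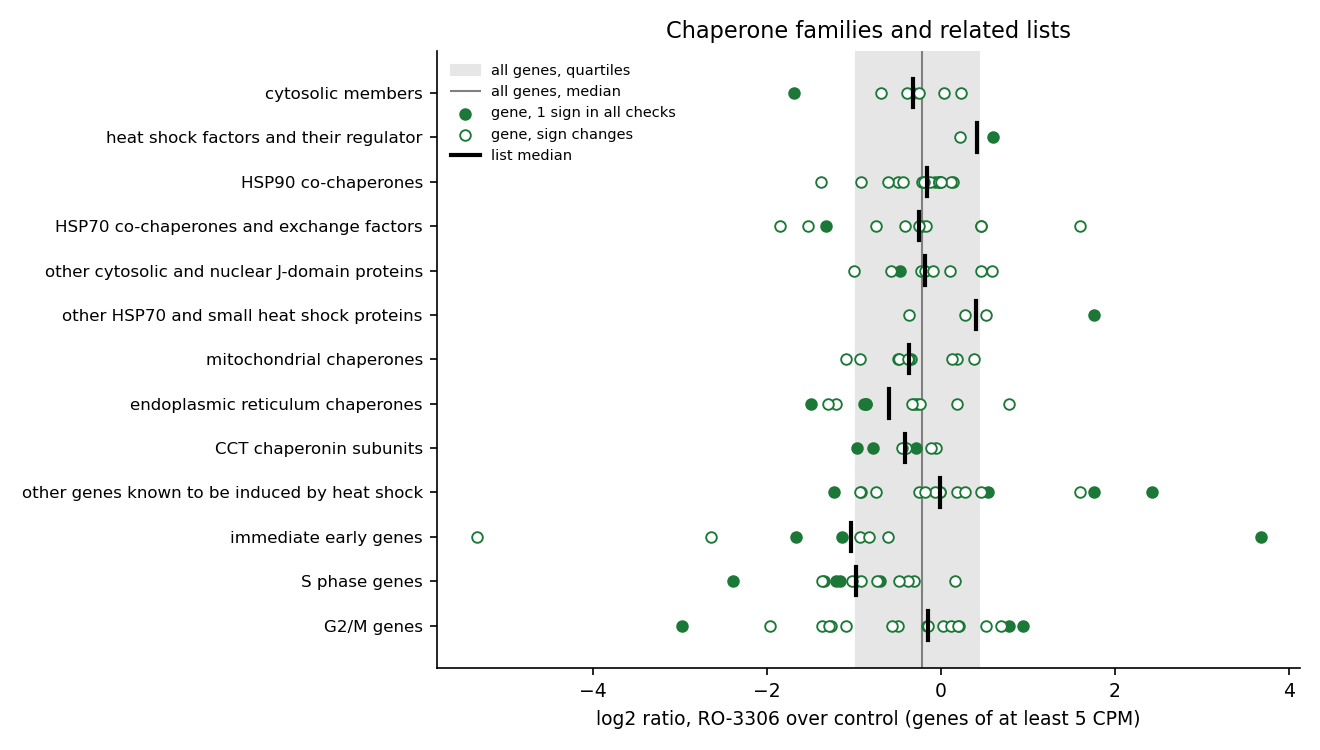
Log2 ratio of RO-3306 over control for each gene of at least 5 CPM in each list (circles, filled where the sign was settled), with list medians (black bars) and the median and quartiles of all 9374 such genes (grey). The members lie around the median of all genes except Hspa4, all CCT subunits lie below 0, and Cryab and Hmox1 lie far to the right.

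Cell by cell, the chaperones were only loosely tied. Spearman correlations were taken over cells thinned to equal depth (25 control and 34 RO-3306 cells), among the 5 members counted in at least 50% of the cells of each group. They are descriptions over cells that share a sample and a total. Hsp90aa1 and Hsp90ab1 correlated at 0.53 in RO-3306 and at 0.03 in control. The RO-3306 value was 0.45 to 0.61 when each lettered set was left out, and the control value -0.20 to 0.26. Hspa8 and Dnaja1 correlated at 0.38 in control (0.22 to 0.52 when each set was left out) and at 0.22 in RO-3306. The summed level of the 10 members correlated with that of the CCT subunits at 0.59 in RO-3306 and 0.26 in control, with the endoplasmic reticulum chaperones at 0.28 and 0.52, and with the share of mitochondrial counts at -0.26 and -0.47. With the number of genes counted it correlated at -0.05 and -0.02. Whether the groups differ in these correlations was not tested.

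**Figure D5:**
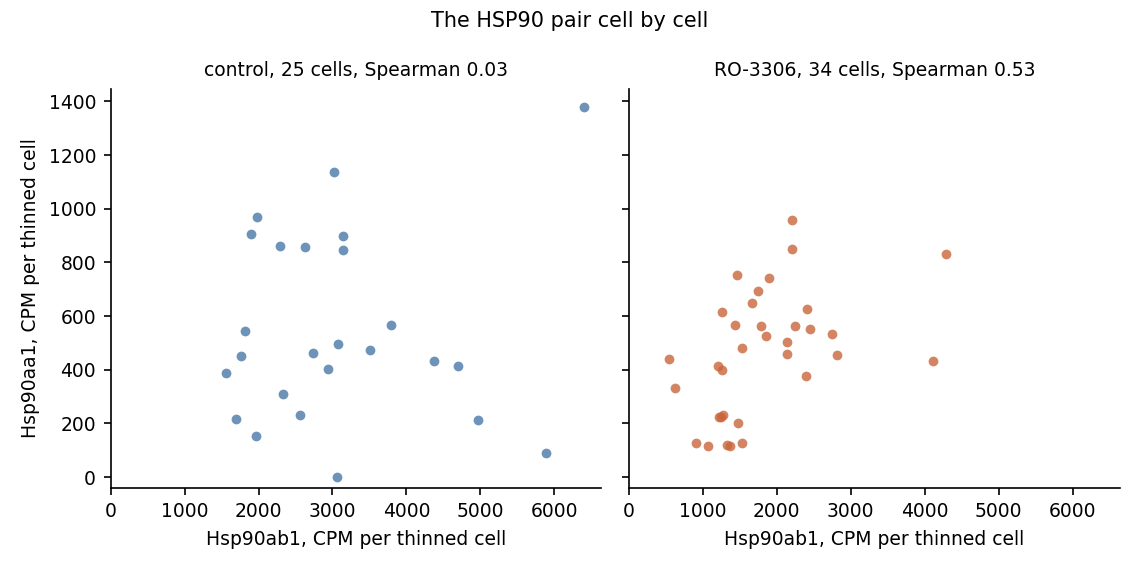
Hsp90aa1 against Hsp90ab1 in each thinned cell (CPM), control at left (25 cells, Spearman 0.03) and RO-3306 at right (34 cells, Spearman 0.53). Points rise together in the RO-3306 panel, and the control points show no such order.

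The genes whose level across cells was most like the summed chaperone level were ranked by the lower of their correlations in both groups, among 2895 other genes of at least 50 CPM counted in at least 50% of thinned cells. The 5 first were Sars (serine tRNA ligase), Psat1 (an enzyme of serine synthesis), Nelfb (a subunit of a factor that pauses RNA polymerase), 1700016L04Rik and Hnrnpa1 (an RNA-binding protein). Their lower correlations were 0.49, 0.46, 0.42, 0.42 and 0.38, where percentile 95 of all genes compared was 0.17. Their log2 ratios were -0.11, -0.76, -0.12, -0.49 and -0.54. These genes were picked as the highest of many, so the values are a description.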

How the data were processed

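The authors deposited expected counts per gene, 1 file per cell. Per the file headers, they were made with featureCounts 2.0.3 over whole gene spans, introns included, of RefSeq on GRCm39, with multi-mapped reads divided evenly among their sites. Per the submitters' processing notes, FastQC and STAR were also used, with no version or role given. No strand option is recorded in the headers, and by the tool's defaults strand is ignored and reads over several gene spans are left out. Per the labels' protocols, SMART-seq v4 libraries were read singly over 150 nt, with no molecular identifier named, so counts include PCR copies.

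Cells were kept at 50000 counts and 1000 genes. The counts of a group's kept cells were added up and scaled to CPM. Each library is 1 sorted cell, so no doublet caller was run, and 0 of 2145 pairs of kept libraries were identical. Counts were rounded for intervals (exact Poisson, Clopper-Pearson), for thinning to 639000 reads (percentile 10 of totals, rounded down to a multiple of 1000) and for scaling factors. Cells with fewer than 639000 reads were left out of thinned values, which left 25 control and 34 RO-3306 cells. A count was called fractional when over 1e-06 from a whole number. List medians use genes of at least 5 CPM over the groups. In each list the highest, the lowest and the most abundant gene are named; others were chosen after their values were seen, and settled genes are named in part. Transcript lengths come from GENCODE M21 (GRCm38), promoters from RefSeq (GRCm38.p6). The members and lists were chosen with earlier results of these data known. The ratio and interval steps were tested on simulated data. Tools were scipy 1.17.1, pandas 2.3.3 and numpy 2.4.6 in Python 3.11.15, and R 4.3.3 with edgeR 4.0.16 (TMM factors) and DESeq2 1.42.0 (size factors), used for scaling only. Alternatives changed the scaling, weighting of cells, depth, pseudocount, fractional counts, cells kept and filters.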

Additional observations from a re-analysis of the deposited data

Results flagged for a closer look

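The 30 libraries left out for low counts or few genes were not used above, and 5 values in them were higher in RO-3306 than in control beyond counting error. The 11 left-out RO-3306 libraries held 1162603 counts in all and the 19 control ones 341166. Hsp90ab1 was at 1546 CPM in the RO-3306 libraries and 35.2 CPM in the control ones, with a count in 11 of 11 and 5 of 19 libraries. Hsp90aa1 was at 48.2 and 4.40 CPM. Hspa8 was at 235 and 30.3 CPM, with 94.1% of the RO-3306 counts in the library D10. Dnaja1 was at 110.3 and 8.79 CPM, with 92.7% in that library. The 10 members summed to 1950 and 93.3 CPM. These values rest on few libraries. The library D5 alone held 66.5% of the left-out RO-3306 counts, and 87.3% of its counts were mitochondrial. Without D5, Hsp90ab1 was at 3005 CPM, Hsp90aa1 at 60.4, Hspa8 at 701, Dnaja1 at 329 and the 10 members at 4129 CPM. Without D10, Hspa8 was at 14.7 CPM (8.32 to 23.6), an interval that overlapped that of the control libraries (14.1 to 53.9). Dnaja1 was then at 8.56 CPM. Neither gene was still above control, and the members summed to 1422 CPM. These leave-outs were chosen after seeing the data. Hspa1a, Hspa1b and Hspb1 had 0 counts in all 30.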

How the results depend on the processing

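The summed level of the 10 members kept its sign under 15 of 15 alternatives, from -0.69 to -0.22 on the log2 scale. It was -0.25 with TMM scaling, -0.22 with DESeq2 size factors, -0.43 with totals without mitochondrial genes, -0.47 with the mean over cells, -0.48 with thinned cells and -0.47 with cells of at least 500000 counts and 3000 genes. Leaving out a lettered set gave -0.69 (set A) to -0.29 (set B). For Hspa1a and Hspa1b together, leaving out a set gave -0.996 to 0.85 (without set A), and leaving out the top cell of each group gave 0.74. In control, 1 cell with a count then remains. Hsp90aa1, Hsp90ab1 and Hspa4 kept their sign under all 15. Hspa8 changed sign without set B (0.07), Hsph1 without set B (0.03) and in the mean over cells (0.50), Dnaja1 without sets A or C (-0.29 at the lowest), and Dnajb1 without set A (-0.18). Without set B the median of the members was 0.03 and that of the mitochondrial chaperones 0.0070. The G2/M median ran from -0.70 (without set A) to 0.61 (without set B). TMM scaling and DESeq2 size factors turned the medians of HSP90 co-chaperones (0.05 and 0.08), of J-domain genes (0.03 and 0.05), of other heat-induced genes (0.20 and 0.22) and of G2/M genes (0.06 and 0.08) to above 0. Shares of cells stayed within their intervals when cells were thinned or 5 counts were asked for. Per-cell medians stayed within 1 SD over cells when thinned, but that SD was wide (389 CPM for Hspa4 in control), so this check could hardly fail. The Hspa4 medians of control and RO-3306 changed order from all kept cells (24.3 and 6.08 CPM) to thinned cells (0 and 6.26 CPM). Cells with too few reads to be thinned had dropped out. In control these were A12, C3, D10 and D2, with Hspa4 at 1736, 1086, 150 and 43.1 CPM before thinning. In RO-3306 they were A6, A11 and B3, at 50.4, 0 and 0 CPM. The change of order thus compares different cells as well as different depths, and cannot be put down to depth alone. With a filter of 50 CPM, 14.4% of genes were lower and 7.24% higher by 2-fold or more. The cause of these changes was not tested. No paired analysis was possible because the labels do not tie a control cell to an RO-3306 cell and each group is 1 sample. Counts under about 3 in a group cannot be told from 0 at this depth.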
